A study of Mus musculus with 9 samples.

Results

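The 34 genes described here encode the proteins that form a fibrin clot, limit clotting and dissolve the clot. They were found by symbol, through the Ensembl IDs of GENCODE M21, among 54532 gene IDs counted in mouse liver RNA. All 34 passed the filter on low counts and were among the 14763 genes tested. Per the labels, the mice were 9 C57BL/6 males lacking apolipoprotein E (ApoE-/-), controls included, a genotype known for high blood lipids; counts in 3 libraries go against this, as given below. Each group held 3 livers. The normal diet group was the control, and for it the design states no injection and no diet times. The HFD + PBS group ate a high-fat diet, with 41% of its calories from fat, for 20 weeks from 4 weeks of age and then chow for 1 week. It received intraperitoneal saline (PBS) at 25, 26 and 27 weeks of age and was killed at 29 weeks. The HFD + IgG1 group was fed and timed in the same way and received 3 mg of recombinant human IgG1, an antibody isotype, at each injection; no target of the antibody is named. The livers sequenced had been chosen by lipid staining and triglyceride results.

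Coagulation is a cascade in which inactive proteases made largely by hepatocytes activate one another until thrombin cuts fibrinogen into fibrin and factor XIII cross-links it. The tissue factor and contact pathways start the cascade, antithrombin, heparin cofactor II, the protein C system and tissue factor pathway inhibitor restrain it, and plasmin dissolves the clot. Not all of these proteins come from hepatocytes: von Willebrand factor, factor VIII, thrombomodulin and tissue plasminogen activator are known as endothelial products, and the factor XIII A subunit and the urokinase receptor as products of myeloid cells. In whole liver, fewer cells of a type and less RNA per cell cannot be told apart.

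Depth ran from 16215194 to 18538463 counts per library. Values below are counts per 1000000 of the library (CPM), with library sizes scaled by TMM factors, given in the order of replicates 4, 5 and 6 for normal diet, 3, 4 and 6 for HFD + PBS, and 5, 6 and 7 for HFD + IgG1. In 3 libraries, transcript counts went against the labels. The library labelled HFD + IgG1 replicate 5 held 235888 Apoe counts against 225 to 1655 in the other 8. Normal diet replicate 5 and HFD + PBS replicate 6, both labelled male, held 17065 and 10970 counts of Xist, the transcript of the inactive X chromosome, and 0 counts over 4 Y-linked genes. The treatment label of HFD + IgG1 replicates 6 and 7 reads IgG2 and IgG3, while their titles place them with replicate 5. Hepatocyte markers were abundant in each library, at 58804 to 179947 summed CPM over the 9 of 10 markers found, lowest in HFD + PBS replicate 3 and highest in HFD + IgG1 replicates 5 and 7. Their median log2 fold change in HFD + IgG1 against HFD + PBS was 0.44, with 7 of 9 positive. The 7 male-biased liver genes had medians of -5.25 in HFD + PBS against normal diet and 6.18 in HFD + IgG1 against HFD + PBS, with all 7 on the same side of 0 in each. Their summed CPM was 2224, 182 and 6087 on normal diet, 678, 349 and 195 in HFD + PBS, and 4363, 670 and 4933 in HFD + IgG1. The groups thus overlapped, with normal diet replicate 5 and HFD + IgG1 replicate 6 as low as HFD + PBS. The part of either list in the results below was not tested.

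The 34 genes together took 3.08% of the counts in HFD + IgG1 replicate 5, the lowest share, and 7.86% in HFD + PBS replicate 4, the highest. Per kilobase of exon, the fibrinogen chains led, with medians over the 9 libraries of 2931 CPM per kb for Fga, 2809 for Fgg and 2325 for Fgb. Vtn, encoding vitronectin, an adhesive plasma protein, followed at 1423 CPM per kb, then Kng1 (kininogen) at 848, Plg (plasminogen) at 703 and Hrg (histidine-rich glycoprotein) at 549. The low end held Tfpi at 3.06, Thbd at 3.03, Vwf at 2.01, F13a1 at 1.41, Plau at 1.02, Plaur at 0.980, F3 at 0.677 and Plat at 0.196 CPM per kb. Thus 22 genes lay at or above 100 CPM in each library, and 5 never reached 20 CPM. Habp2, a plasma protease that can activate factor VII and urokinase, varied least, 1.49-fold between its lowest and highest library. F13a1 varied 109-fold, Plaur 26.5-fold and Plat 14.0-fold.

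**Figure D1:**
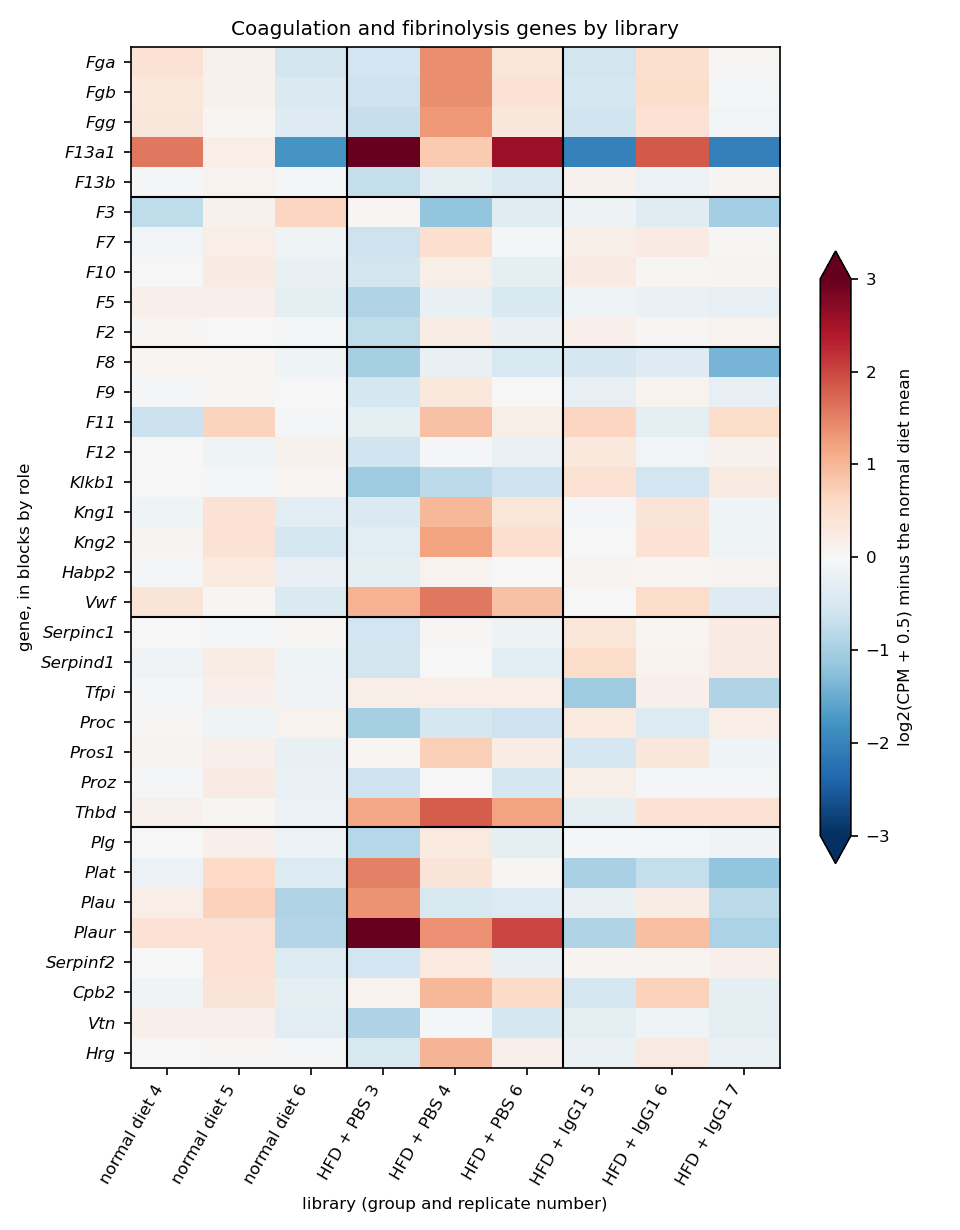
Heat map of the 34 genes (rows, by role) in the 9 libraries (columns, by group). Colour gives log2(CPM + 0.5) minus the gene's normal diet mean on that scale and is clipped at 3 in each direction, which F13a1 and Plaur in HFD + PBS replicate 3 exceed. Within HFD + IgG1, replicate 6 differs in colour from replicates 5 and 7 for Klkb1, Proc, Tfpi and F13a1.

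HFD + PBS was first set against normal diet, which asks what the diet and the saline injections together go with. No gene of the 34 passed at an adjusted p under 0.05 (edgeR quasi-likelihood test, Benjamini-Hochberg over all genes), and 0 of 14763 genes did (0%). Among the 34, Thbd, Vwf and Plaur had an unadjusted p under 0.05 with higher levels in HFD + PBS, 3 genes, against 9.41% of all genes tested. Klkb1, Proc, F13b and F5 had one with lower levels, 4 genes, against 11.4% of all genes, so that 7 of the 34 stood beside 20.8% of all genes in either direction. The 3 libraries of the groups did not overlap for 4 genes higher in HFD + PBS (Thbd, Vwf, Plaur and Tfpi; 13% of all genes) and for 4 lower ones (Klkb1, Proc, F13b and F8; 15.3%). The median log2 fold change of the 34 was -0.01, with 17 positive and 17 negative (50.3% of all genes were negative), beside -0.003 over all genes.

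HFD + IgG1 was then set against HFD + PBS, which asks what the antibody goes with under the same diet. Again 0 of the 34 and 0 of 14763 genes passed (0%; edgeR, adjusted p under 0.05). Klkb1, Proc, F13b and Serpind1 had an unadjusted p under 0.05 with higher levels in HFD + IgG1, 4 genes, beside 12.6% of all genes. Thbd, Plat, Vwf, Plaur and Tfpi had one with lower levels, 5 genes, beside 11.6%, and the 9 in either direction stood beside 24.2%. The groups did not overlap for 5 higher genes (the same 4 and Serpinc1; 15.3% of all genes) and for these 5 lower ones (11.2%). The median of the 34 was -0.09, with 16 positive and 18 negative (47.2% of all genes), beside 0.04 over all genes. This comparison shares its HFD + PBS libraries with the first, so that a high or low HFD + PBS library enters both with opposite sign.

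HFD + IgG1 against normal diet shares its libraries with both. There, 0 of the 34 and 0 of 14763 genes passed (0%; edgeR), 0 of the 34 had an unadjusted p under 0.05 with higher levels (3.83% of all genes) and 2, Plat and F8, with lower levels (3.21%), the 2 in either direction beside 7.04%. Only Serpinc1 had higher libraries without overlap (5.54% of all genes), and only Plat and F8 lower ones (6.41%). The median of the 34 was 0.02, with 19 positive and 15 negative (49.6% of all genes), beside 0.003 over all genes.

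The number of calls depended on the tool and on 1 library. DESeq2 called 5 of the 34 in HFD + PBS against normal diet (Klkb1, Plaur, Proc, Thbd and Vwf; 8.03% of all genes), 6 in HFD + IgG1 against HFD + PBS (the same 5 and Plat; 8.93%) and 0 in the third comparison (0.799%), while limma-voom called 0 in each. When HFD + IgG1 replicate 6 was left out, edgeR called 4 in the first (Klkb1, Plaur, Thbd and Vwf; 3.79%) and 7 in the second (Klkb1, Plat, Plaur, Proc, Tfpi, Thbd and Vwf; 15.5%). With no filter on low counts it called Thbd in the first (1.03%) and in the second (0.215%), in a fit of the 6 libraries compared Thbd in the first (1.27%), and with only the antibody library labelled IgG1 Klkb1, Tfpi and Thbd in the second (3.45%). An alternative added after the data were seen left out the 3 libraries whose Apoe, Xist or Y-linked counts went against the labels. It gave 0 calls among the 34 in each comparison (0.0134%, 0% and 0% of all genes). Of the 34, 6, 4 and 0 had an unadjusted p under 0.05 (edgeR) in place of 7, 9 and 2. The share of all genes fell too, to 15.1%, 8.4% and 3.54% in place of 20.8%, 24.2% and 7.04%. Plaur, in the second comparison, was then at -2.40, Proc at 0.63, Serpind1 at 0.39, F13b at 0.38 and Tfpi at -0.51. None of these had an unadjusted p under 0.05 in that edgeR fit. The p-values set each difference against the spread between mice within groups, 3 to a group when all libraries are used. In fits of all 3 groups that spread is estimated over the groups together, so a library outside a comparison also enters its p-values.

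**Figure D2:**
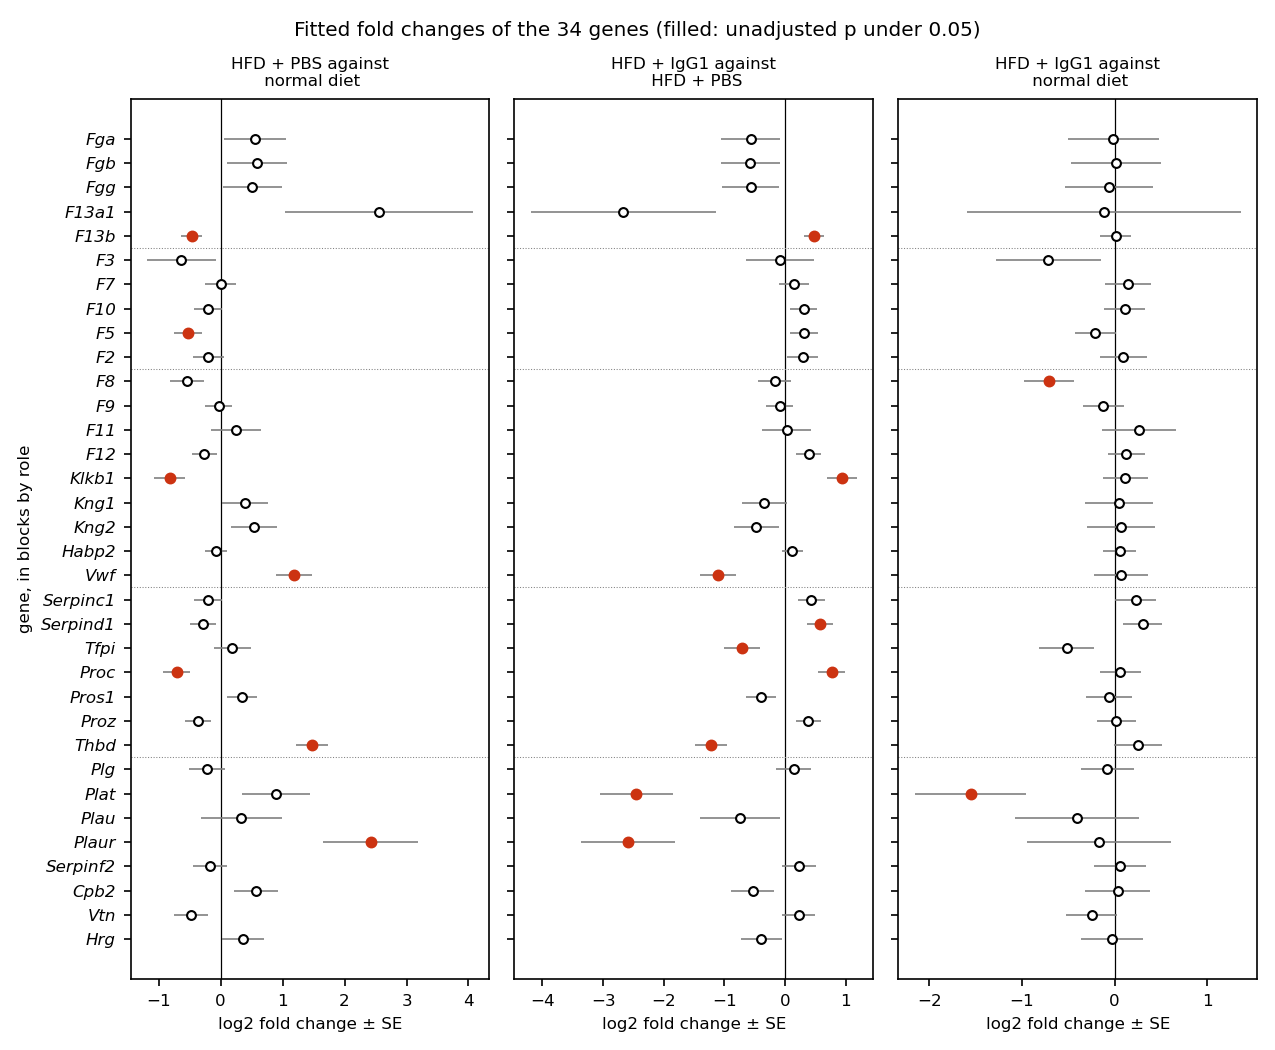
Fitted log2 fold change (points) with its standard error (bars) for each of the 34 genes, by role, in the 3 comparisons, each on its own scale; filled points have an unadjusted p under 0.05. Thbd, Vwf and Plaur lie to the right in HFD + PBS against normal diet and to the left in HFD + IgG1 against HFD + PBS, comparisons that share the HFD + PBS libraries.

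Fibrinogen, the substrate of the clot, is a hexamer of 3 chains encoded side by side on chromosome 3 (mm10): Fgg at chr3:83007724-83015049 on the plus strand, Fga at chr3:83026076-83033627 on the plus strand and Fgb at chr3:83040141-83049863 on the minus strand, with gaps of 11 and 6.5 kb. All 3 are known acute phase genes in hepatocytes. Their levels spread widely within groups and overlapped between them. Fga was at 10959, 8822 and 5497 CPM on normal diet, 5423, 21354 and 10343 in HFD + PBS, and 5539, 11237 and 8266 in HFD + IgG1. Fgb was at 10124, 8859 and 5965, then 5270, 21293 and 11051, then 5609, 11740 and 7925 CPM. Fgg was at 7216, 5880 and 4326, then 3520, 14033 and 7247, then 3737, 7667 and 5329 CPM. HFD + PBS thus held both the library with the least (replicate 3) and the one with the most (replicate 4) of each chain.

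The log2 fold changes in HFD + PBS against normal diet were 0.55 (SE 0.49) for Fga, 0.59 (0.49) for Fgb and 0.51 (0.47) for Fgg, with edgeR adjusted p of 0.546, 0.511 and 0.567. Without HFD + PBS replicate 4 they were -0.08, -0.01 and -0.09. In HFD + IgG1 against HFD + PBS each chain was at -0.57, with SEs of 0.49, 0.49 and 0.47 and adjusted p of 0.490, 0.478 and 0.472, and without that library at 0.05, 0.01 and 0.02. While the level of Fgb ranged 4.04-fold over the libraries, the chains kept nearly fixed proportions in each: the ratio of Fga to Fgb CPM ran only from 0.922 to 1.08, and that of Fgg to Fgb from 0.653 to 0.725. The summed CPM of 15 acute phase genes was 19043 to 78728 on normal diet, 31613 to 74300 in HFD + PBS, and 13294, 55547 and 16705 in HFD + IgG1, and its part in the fibrinogen levels was not tested.

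**Figure D3:**
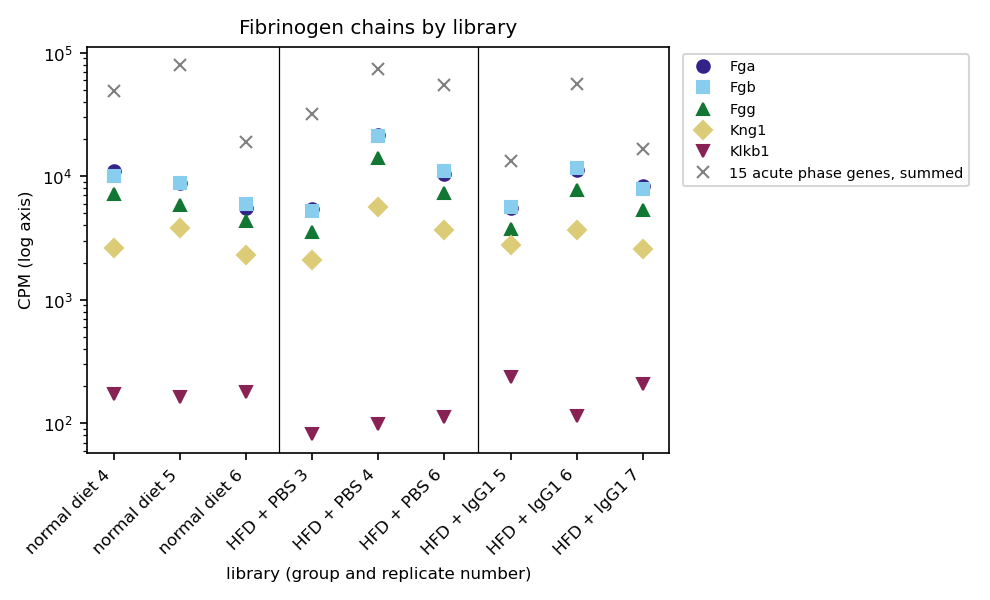
Level (CPM, log axis) of Fga, Fgb, Fgg, Kng1 and Klkb1 and of 15 acute phase genes summed, in each of the 9 libraries, with lines between groups. The 3 fibrinogen chains have their highest points in HFD + PBS replicate 4 and their lowest in HFD + PBS replicate 3 and keep the same distance from each other, while Klkb1 is lowest in the 3 HFD + PBS libraries.

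Because the 3 chains kept these proportions over the libraries, the sequences before their start sites are shown, from RefSeq (GRCm38.p6), 5′ to 3′ on the strand of the gene. For Fga the bases that lie inside the GENCODE gene model are left out, so that the run ends at position -78, counted from the RefSeq start. Capitals mark CTGGGAA (known as a type II interleukin-6 response element), GTTAAT or its complement and TTGCNNAA (a C/EBP motif), searched on both strands. Fga is chr3:83025903-83026075, Fgb chr3:83049864-83050113 (minus strand) and Fgg chr3:83007474-83007723.
Fga: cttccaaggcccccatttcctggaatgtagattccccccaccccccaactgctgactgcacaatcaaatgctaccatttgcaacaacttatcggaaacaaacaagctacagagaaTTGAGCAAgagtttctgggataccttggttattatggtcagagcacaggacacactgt
Fgb: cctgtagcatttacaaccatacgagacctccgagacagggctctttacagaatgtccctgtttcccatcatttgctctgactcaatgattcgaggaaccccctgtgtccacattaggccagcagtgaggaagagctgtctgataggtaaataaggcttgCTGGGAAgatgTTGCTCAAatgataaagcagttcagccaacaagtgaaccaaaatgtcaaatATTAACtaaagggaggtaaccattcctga
Fgg: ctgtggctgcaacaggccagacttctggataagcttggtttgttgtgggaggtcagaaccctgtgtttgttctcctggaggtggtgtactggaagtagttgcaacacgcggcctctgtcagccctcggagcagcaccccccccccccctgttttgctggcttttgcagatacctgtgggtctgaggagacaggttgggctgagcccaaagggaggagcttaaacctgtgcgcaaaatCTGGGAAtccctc
Fgb held all 3 motifs between positions -91 and -24, Fga the C/EBP motif at position -135 and, in bases not printed here, GTTAAT at -43, and Fgg CTGGGAA at -13. RefSeq promoters were matched for 27 of the 34 genes. In the 250 bases before the start, CTGGGAA was found in 4 of the 27 (14.8%, beside 9.10% of 32851 promoters), GTTAAT in 6 (22.2% beside 6.43%), TTGCNNAA in 9 (33.3% beside 9.56%) and the HNF4 motif CAAAGTCC in 0 (beside 1.20%). These are matches of letters, not measured binding sites.

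Factor XIII, which cross-links fibrin, has a catalytic A subunit (F13a1) and a carrier B subunit (F13b). F13b was at 254, 286 and 260 CPM on normal diet, 163, 221 and 196 in HFD + PBS, and 294, 234 and 280 in HFD + IgG1. Each HFD + PBS library lay below every library of the other 2 groups. The log2 fold changes were -0.46 (SE 0.17; edgeR adjusted p = 0.177) in HFD + PBS against normal diet and 0.48 (SE 0.17; adjusted p = 0.150) in HFD + IgG1 against HFD + PBS. The RefSeq bases before the F13b start (chr1:139501457-139501701, plus strand, ending at position -6) are shown because they hold GTTAAT at -51, read on the other strand and set in capitals.
F13b: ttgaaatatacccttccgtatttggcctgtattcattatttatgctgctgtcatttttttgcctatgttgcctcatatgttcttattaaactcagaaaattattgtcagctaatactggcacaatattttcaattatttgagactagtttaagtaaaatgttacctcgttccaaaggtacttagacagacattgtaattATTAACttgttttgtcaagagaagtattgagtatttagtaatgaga
F13a1 was at 16.9, 6.18 and 1.20 CPM on normal diet, 98.8, 9.49 and 33.99 in HFD + PBS, and 0.928, 20.3 and 0.906 in HFD + IgG1. The groups overlapped, and HFD + IgG1 replicate 6 stood above its group. The log2 fold changes, 2.55 (SE 1.52) and -2.67 (SE 1.52), had adjusted p of 0.381 and 0.319. With HFD + PBS replicate 3 left out they were 1.45 and -1.56, the first was 3.71 once normal diet replicate 4 was dropped, and the second -5.68 once HFD + IgG1 replicate 6 was. Summed neutrophil markers had a like order, 35.6 to 190 CPM on normal diet, 431 to 4191 in HFD + PBS and 13.2, 630 and 20.0 in HFD + IgG1, as did monocyte and macrophage markers at 421 to 565, 779 to 1719, and 172, 892 and 298 CPM. None of the 8 markers in either list was at 0 throughout, and their part in F13a1 was not tested.

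The tissue factor pathway starts with F3, tissue factor, the receptor for factor VII, and passes through factors X and V to thrombin. F3 was scarce in whole liver, at 1.16, 2.62 and 3.90 CPM on normal diet, 2.47, 0.743 and 1.70 in HFD + PBS, and 2.07, 1.71 and 0.906 in HFD + IgG1. F7 was at 104, 127 and 100.6, then 71.2, 155 and 107, then 124, 130 and 113 CPM. F2, which encodes prothrombin, was at 1891, 1835 and 1772, then 1089, 2135 and 1569, then 2034, 1874 and 1971 CPM. For F3, F7 and F2, and for F10 at 330 to 573 CPM, the 3 groups overlapped, and HFD + PBS replicate 3 was the lowest library for F7, F10 and F2. F5, the cofactor of factor Xa, was at 1153, 1149 and 843 CPM on normal diet, 553, 882 and 758 in HFD + PBS, and 953, 898 and 876 in HFD + IgG1. HFD + PBS was mostly lower, but its replicate 4 overlapped the normal diet range. The log2 fold change of F5 in HFD + PBS against normal diet was -0.52 (SE 0.23; edgeR adjusted p = 0.230), and F2 was at -0.20 (SE 0.25; adjusted p = 0.690). F2 was at 0.29 (SE 0.25; adjusted p = 0.486) in HFD + IgG1 against HFD + PBS. F7, F10 and Proz lie in a row on chromosome 8, 1.5 and 4.2 kb apart.

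In the contact pathway, plasma prekallikrein (Klkb1) and factor XII activate each other on kininogen and then activate factor XI. Klkb1 was at 174, 165 and 179 CPM on normal diet, 81.9, 99.4 and 112 in HFD + PBS, and 238, 115 and 208 in HFD + IgG1. The 3 HFD + PBS libraries were the lowest of the 9, and HFD + IgG1 replicate 6 lay next to them. The log2 fold change was -0.82 (SE 0.25; edgeR adjusted p = 0.132) in HFD + PBS against normal diet and 0.94 (SE 0.25; adjusted p = 0.140) in HFD + IgG1 against HFD + PBS. The second was 1.19 without HFD + IgG1 replicate 6, 0.68 without HFD + IgG1 replicate 5 and 0.50 with the replicate number as a block. Klkb1 (chr8:45266689-45294859, minus strand) lies 4.7 kb from F11 (chr8:45241174-45262031, minus strand), the gene of factor XI and a close relative. F11 did not share the pattern, at 32.9, 82.5 and 50.4 CPM, then 42.7, 94.8 and 58.6, then 81.0, 42.3 and 76.2, and the ratio of F11 to Klkb1 CPM ranged 5.05-fold over the 9 libraries. Of the Klkb1 exon sequence, 42.7% of 50-base windows also occur in the gene model Gm45753, which held 3 counts over the 9 libraries. The RefSeq bases before the Klkb1 start (chr8:45294860-45295085, minus strand, ending at position -25) are shown to set beside those of fibrinogen, with a C/EBP motif at -177 in capitals.
Klkb1: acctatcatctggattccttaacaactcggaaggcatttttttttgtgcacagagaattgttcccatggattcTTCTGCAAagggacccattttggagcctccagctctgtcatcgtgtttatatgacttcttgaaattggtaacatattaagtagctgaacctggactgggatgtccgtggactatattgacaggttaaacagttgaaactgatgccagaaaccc

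The other contact and intrinsic genes overlapped between groups more widely. F12, which starts the contact pathway, was at 451, 420 and 501 CPM on normal diet, 301, 444 and 399 in HFD + PBS, and 572, 431 and 495 in HFD + IgG1. F9, the factor missing in haemophilia B, was at 302, 319 and 317, then 216, 391 and 311, then 263, 334 and 266 CPM, and Habp2 ran from 150 to 224 CPM. In both F12 and F9, HFD + PBS replicate 3 was the lowest library. Kng1 and Kng2, paralogs 28.4 kb apart on chromosome 16, encode kininogens. Kng1 was at 2612, 3824 and 2288 CPM, then 2095, 5674 and 3666, then 2755, 3688 and 2580, and Kng2 at 428, 541 and 281, then 325, 922 and 575, then 399, 546 and 367. Both were highest in HFD + PBS replicate 4, and their groups overlapped. Their log2 fold changes in HFD + PBS against normal diet were 0.39 (SE 0.37) and 0.54 (SE 0.37), with edgeR adjusted p of 0.572 and 0.432, and in HFD + IgG1 against HFD + PBS -0.34 and -0.47. Between 17.2% and 19.4% of their 50-base windows are shared, so the split of reads between them is uncertain; the ratio of Kng2 to Kng1 CPM stayed between 0.123 and 0.164.

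F8 and Vwf travel as a complex in plasma, since von Willebrand factor carries factor VIII, but their RNAs differed in pattern. Vwf was at 32.3, 25.5 and 18.3 CPM on normal diet, 51.7, 75.2 and 45.8 in HFD + PBS, and 24.9, 36.2 and 18.9 in HFD + IgG1. Every HFD + PBS library was above every other library. The log2 fold change was 1.18 (SE 0.29; edgeR adjusted p = 0.101) against normal diet and -1.11 (SE 0.29; adjusted p = 0.140) for HFD + IgG1 against HFD + PBS. F8 was at 75.0, 75.1 and 65.2 CPM on normal diet, 35.5, 61.7 and 51.0 in HFD + PBS, and 50.2, 54.8 and 26.9 in HFD + IgG1. Both high-fat groups lay below normal diet without overlap, and HFD + IgG1 against normal diet gave -0.71 (SE 0.27; adjusted p = 0.657). Summed over 13 endothelial markers, none at 0, the level was 915 to 1033 CPM on normal diet, 762 to 1134 in HFD + PBS and 584 to 973 in HFD + IgG1, ranges that overlap. By fold change, 12 of the 13 were lower in HFD + IgG1 than in HFD + PBS (median -0.26). In HFD + IgG1 against normal diet 13 of 13 were lower (median -0.28). By fold change, F8 and, among the activators below, Plat were lower in both comparisons. For F8 the value in HFD + IgG1 against HFD + PBS was only -0.17 (SE 0.27), and the groups overlapped. Without HFD + IgG1 replicate 7 that value was 0.059. Vwf at 0.07 and Thbd at 0.25 were not lower in HFD + IgG1 than on normal diet. In HFD + PBS against normal diet, 8 of the 13 markers were higher and 5 lower (median 0.10), while F8 was at -0.54. Vwf is also made by megakaryocytes, and the platelet markers summed to 36.1 to 40.3, 53.5 to 84.1 and 22.7 to 47.4 CPM, with Gp1bb at 0 in all 9 libraries. Clec1b, which sinusoidal and Kupffer cells also express, made up much of that sum, at 15.9 to 50.9 CPM. By fold change, the 7 of 10 platelet markers tested were all higher in HFD + PBS than on normal diet (median 2.20). All 7 were lower in HFD + IgG1 than in HFD + PBS (median -1.42). In HFD + IgG1 against normal diet, 5 were higher and 2 lower (median 0.71). The 8 Kupffer cell markers were all higher by fold change in HFD + PBS than on normal diet (median 0.81) and all lower in HFD + IgG1 than in HFD + PBS (median -1.15). The part of these cells in the levels of Vwf, F8, Thbd and Plat was not tested.

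**Figure D4:**
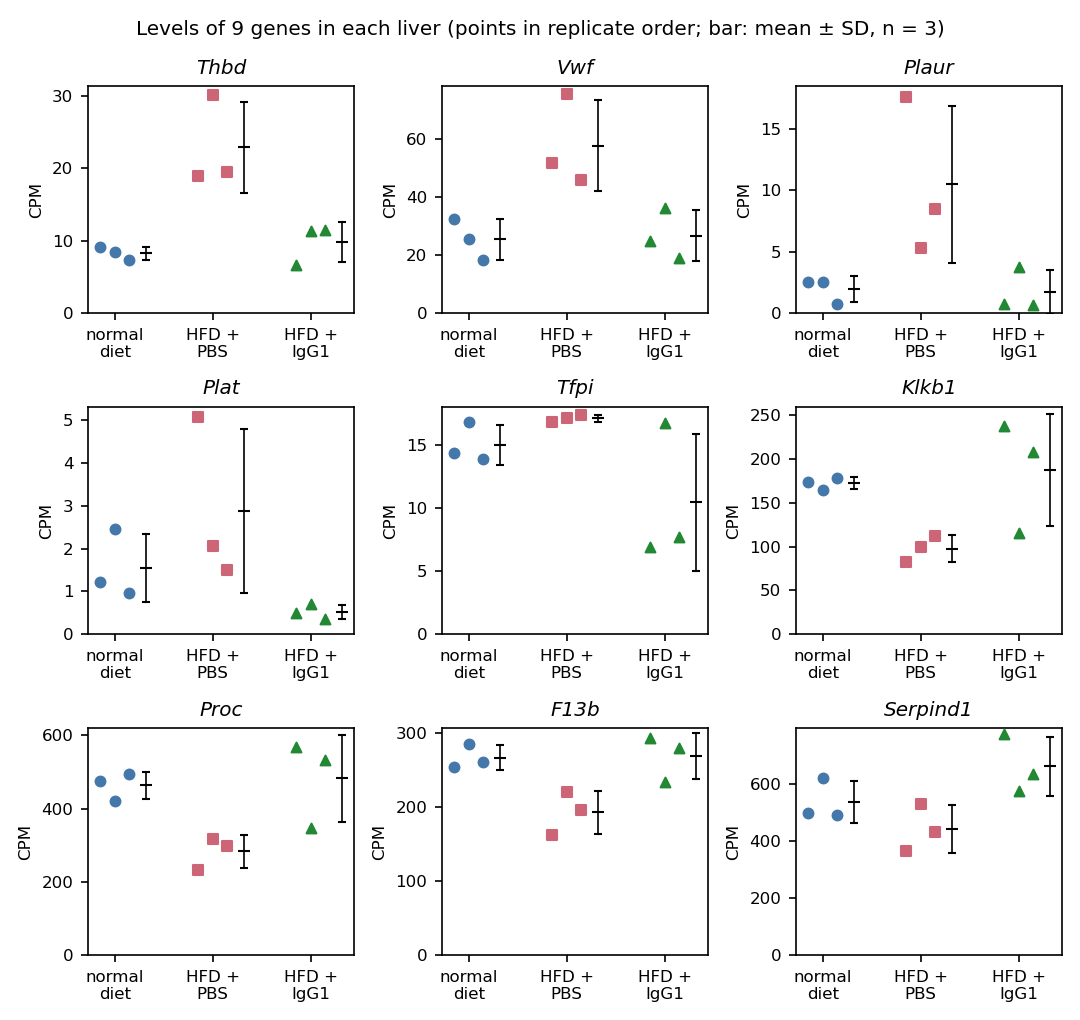
CPM in each library (points) with the group mean and SD (bars) for Thbd, Vwf, Plaur, Plat, Tfpi, Klkb1, Proc, F13b and Serpind1, each on its own scale from 0. Thbd, Vwf and Plaur are highest in the 3 HFD + PBS libraries, Klkb1, Proc and F13b lowest in them; for Plaur the lower SD bar in HFD + IgG1 is cut at 0.

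Among the anticoagulants, thrombomodulin and protein C act in one pathway, in which thrombin bound to thrombomodulin (Thbd) on endothelium activates protein C (Proc). HFD + PBS held the highest levels of Thbd and the lowest of Proc. Thbd was at 9.10, 8.40 and 7.26 CPM on normal diet, 18.99, 30.2 and 19.5 in HFD + PBS, and 6.64, 11.3 and 11.5 in HFD + IgG1. The 3 HFD + PBS libraries were above all others, at a mean of 22.9 ± 6.33 CPM (SD, n = 3) against 8.25 ± 0.931 on normal diet and 9.79 ± 2.74 in HFD + IgG1. Thbd had the lowest adjusted p of the 34 in HFD + PBS against normal diet, 0.078 (edgeR), at 1.47 (SE 0.26) on the log2 scale. In HFD + IgG1 against HFD + PBS it was at -1.22 (SE 0.26; adjusted p = 0.140). Leaving out the 3 libraries whose counts went against the labels gave 1.61 and -1.15.

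Proc was at 475, 421 and 493 CPM on normal diet, 232, 318 and 299 in HFD + PBS, and 569, 348 and 531 in HFD + IgG1. The 3 HFD + PBS libraries were the lowest, followed by HFD + IgG1 replicate 6. The log2 fold change was -0.71 (SE 0.22; edgeR adjusted p = 0.140) against normal diet and 0.77 (SE 0.22; adjusted p = 0.140) for HFD + IgG1 against HFD + PBS. Pros1, which encodes the protein C cofactor protein S, was at 118 to 272 CPM and overlapped across groups, as did Proz (protein Z) at 280 to 510.

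The serpins Serpind1 and Serpinc1 inhibit thrombin. Serpind1 (heparin cofactor II) was at 497, 620 and 490 CPM on normal diet, 366, 530 and 430 in HFD + PBS, and 774, 573 and 635 in HFD + IgG1, which in edgeR gave 0.58 on the log2 scale (SE 0.21; adjusted p = 0.154) for HFD + IgG1 against HFD + PBS. Serpinc1 (antithrombin) was at 1913, 1829 and 1961, then 1286, 1959 and 1721, then 2446, 1982 and 2267 CPM, with fold changes of -0.20 (SE 0.22; adjusted p = 0.638) for HFD + PBS against normal diet, 0.43 (SE 0.22; adjusted p = 0.259) for HFD + IgG1 against HFD + PBS and 0.23 (SE 0.22; adjusted p = 0.827) for HFD + IgG1 against normal diet. For both serpins the HFD + IgG1 libraries sat above those of HFD + PBS, and for Serpinc1 replicate 6 did so only narrowly. Of the 8736 50-base windows of Serpinc1 exon sequence, 2893 also lie in Zbtb37 on the opposite strand, which held 1891 counts over the 9 libraries. Tfpi, which blocks the tissue factor and factor VIIa complex, was at 14.3, 16.8 and 13.9 CPM, then 16.8, 17.2 and 17.4, then 6.92, 16.7 and 7.73. Its HFD + IgG1 replicates 5 and 7 were low and replicate 6 was not, and the lowest HFD + PBS library exceeded the highest of normal diet by less than the digits given. The log2 fold change for HFD + IgG1 against HFD + PBS was -0.71 (SE 0.30; adjusted p = 0.188), and it was -1.22 without replicate 6 and -0.51 without replicate 5.

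Fibrinolysis rests on plasminogen, its activators and their receptor. Plg was at 2756, 3045 and 2407 CPM on normal diet, 1498, 3324 and 2219 in HFD + PBS, and 2640, 2608 and 2525 in HFD + IgG1, and the groups overlapped. Its log2 fold changes were -0.22 (SE 0.29; edgeR adjusted p = 0.696) and 0.14 (SE 0.29; adjusted p = 0.781) in the first and second comparisons; without HFD + PBS replicate 3 they were 0.05 and -0.12. The activators were scarce. Plat, tissue plasminogen activator, was at 1.22, 2.45 and 0.959 CPM, then 5.08, 2.06 and 1.50, then 0.499, 0.695 and 0.362. The HFD + IgG1 libraries were the lowest 3, below both other groups. Plat had a log2 fold change of -2.45 (SE 0.60; adjusted p = 0.140) for HFD + IgG1 against HFD + PBS and -1.56 (SE 0.60; adjusted p = 0.655) against normal diet. Plau, urokinase, was at 3.42, 5.01 and 1.32 CPM, then 8.21, 1.94 and 2.06, then 2.43, 3.47 and 1.45, and its groups overlapped, with HFD + PBS replicate 3 highest.

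Plaur, the urokinase receptor, was at 2.56, 2.56 and 0.720 CPM on normal diet, 17.6, 5.32 and 8.51 in HFD + PBS, and 0.714, 3.74 and 0.664 in HFD + IgG1. All 3 HFD + PBS libraries were above the rest, and HFD + IgG1 replicate 6 came next. The log2 fold change was 2.42 (SE 0.77; edgeR adjusted p = 0.149) against normal diet and -2.59 (SE 0.78; adjusted p = 0.140) for HFD + IgG1 against HFD + PBS, and the second was -3.91 without that replicate, -2.01 without HFD + PBS replicate 3 and -1.55 with the replicate block. The neutrophil and monocyte marker sums given beside F13a1 were highest in the same 4 libraries, and their part in the Plaur levels was not tested. The plasma regulators of fibrinolysis were abundant and overlapped: Serpinf2 (alpha-2-antiplasmin) at 669 to 1343 CPM, Cpb2 (a carboxypeptidase that removes plasminogen binding sites from fibrin) at 358 to 1003, Vtn at 1822 to 3898 and Hrg at 777 to 2178.

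A further list of 25 coagulation and fibrinolysis genes outside the 34 had 21 tested and 0 passing in each comparison (edgeR, adjusted p under 0.05). In HFD + PBS against normal diet, 3 had an unadjusted p under 0.05 with higher levels (9.41% of all genes) and 0 with lower ones (11.4%). These were Anxa2, a plasminogen-binding annexin, at 1.75 (SE 0.58; adjusted p = 0.162), Fgl2, a prothrombin-cleaving protein of macrophages and endothelium, at 0.89, and Mmrn1, the factor V carrier multimerin, at 1.44. In HFD + IgG1 against HFD + PBS, 3 had one with higher levels (12.6% of all genes) and 5 with lower ones (11.6%). The 4 with the smallest p were Fgl2 at -1.40 (SE 0.36; adjusted p = 0.140), Tfpi2, an inhibitor of plasmin and other proteases, at 0.52, Anxa2 at -1.85 and Procr, the endothelial protein C receptor, at -1.42. Only Adamts13, the protease that cuts von Willebrand factor, had an unadjusted p under 0.05 in HFD + IgG1 against normal diet. It was lower, at -0.49 (edgeR adjusted p = 0.697), and 3.21% of all genes had such a p with lower levels.

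The vitamin K cycle and the cargo receptor for factors V and VIII serve the secretion of clotting factors. Of 5 such genes, 0 passed in any comparison (edgeR). In HFD + IgG1 against HFD + PBS, 3 had an unadjusted p under 0.05 with higher levels, beside 12.6% of all genes: Lman1, the cargo receptor, at 0.71 (SE 0.18; adjusted p = 0.140), Ggcx, the vitamin K-dependent carboxylase, at 0.55 (adjusted p = 0.143) and Vkorc1l1 at 0.45 (adjusted p = 0.149). Of 9 hepatocyte transcription factors, 0 passed. In HFD + PBS against normal diet, 3 had an unadjusted p under 0.05 with lower levels (11.4% of all genes), among them Foxa1 at -1.16 and Nr1h4 at -0.54. In HFD + IgG1 against HFD + PBS, 4 had one with higher levels (12.6%) and 1 with lower levels (11.6%). Among the higher ones were Foxa1 at 1.31 and Cebpa at 1.06, and the single lower one was Cebpb at -0.93, named after its value was seen.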

How the data were processed

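Liver RNA of 9 mice was sequenced, 3 libraries per group, grouped by sample title. The deposited table holds whole-number counts per Ensembl gene ID that the authors did not normalise; the submitters' processing notes name mm10 and Bowtie 0.12.2. No source used here states how reads were counted, or with which annotation and strand setting. Reads of overlapping or near-identical genes may be misassigned. GENCODE M21 named 54495 of 54532 IDs. Depth was 16215194 to 18538463 counts per library.

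Counts passing filterByExpr (minimum count 10, minimum total 15) were fitted in edgeR 4.0.16 (R 4.3.3) with TMM factors and the robust quasi-likelihood test over all 9 libraries. P-values were adjusted by Benjamini-Hochberg over 14763 genes, with a threshold of 0.05. The biological coefficient of variation was 0.318. The code was tested on simulated data. There, per comparison, it recovered 16 to 21 of 100 genes changed 2-fold and 68 to 71 of 100 changed 4-fold, with 3 to 6 false calls. So 0 calls do not show that no gene changed. CPM used TMM library sizes. DESeq2 1.42.0, limma-voom 3.58.1, other factors, no filter, the 6 libraries compared, a replicate block, leaving out each library, and the antibody library labelled IgG1 alone were alternatives. Leaving out the 3 libraries at odds with their labels, and a covariate for Y-linked reads, were added after the data were seen.

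The members and lists were chosen with earlier results of these data known. Values in every library were given for the 6 members with the smallest p in each comparison and for a set list of members, and fold changes for those with an unadjusted p under 0.05 and for fibrinogen, kininogens, F2, Plg, Serpinc1 and F13a1. Of the further coagulation genes, up to 4 with the smallest p were named, and of other lists up to 3; some genes of these lists are not reported here. Promoters came from RefSeq (GRCm38.p6); 50-base windows of exons were compared with other GENCODE transcripts. No sequence is shown for Proc.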

Additional observations from a re-analysis of the deposited data

How the results depend on the processing

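The number of the 34 genes called at an adjusted p under 0.05 was 0 in each comparison with edgeR on all libraries. In HFD + PBS against normal diet it was 5 with DESeq2, where 8.03% of all genes were called. It was 1 (Thbd) without the filter on low counts (1.03% of all genes) and 1 (Thbd) in a fit of the 6 libraries alone (1.27%). It was 0 to 4 when each library was left out, the 4 without HFD + IgG1 replicate 6 (3.79%). In HFD + IgG1 against HFD + PBS it was 6 with DESeq2 (8.93% of all genes) and 1 (Thbd) without the filter (0.215%). It was 0 to 7 when each library was left out, the 7 again without HFD + IgG1 replicate 6 (15.5% of all genes). The cause was not tested. With only the antibody library labelled IgG1, the group rests on replicate 5, the library with 235888 Apoe counts. That library is assumed to vary like the other groups. Klkb1 was then at 1.296, Tfpi at -1.295 and Thbd at -1.774 in this comparison. HFD + IgG1 against normal diet gave 0 under each of these alternatives, and the medians of the 34 moved by less than the spread between replicates. With the covariate for Y-linked reads, added after the data were seen, 0 genes were called in each comparison. In that edgeR fit 6, 8 and 0 of the 34 had an unadjusted p under 0.05, beside 18.3%, 18.3% and 5.19% of all genes. Directions turned for Plg with the replicate block, at 0.023 in the first comparison and -0.004 in the second, and also for Plau, at -0.468 and 0.477, and in the first for F9, F10, Habp2 and Serpinf2 and in the second for F3, F7, F11 (-0.856) and Habp2. When each library was left out, the log2 fold changes in the first comparison ran from -0.077 to 0.938 for Fga, -0.007 to 0.986 for Fgb, -0.089 to 0.900 for Fgg, -0.441 to 0.042 for F2 and -0.536 to 0.045 for Plg. In the second they ran from -0.947 to 0.047 for Fga, -0.963 to 0.011 for Fgb, -0.954 to 0.016 for Fgg, -0.658 to 0.025 for Kng1 and -0.122 to 0.438 for Plg. The turned values of the fibrinogen chains and Kng1 came without HFD + PBS replicate 4, and those of F2 and Plg without HFD + PBS replicate 3. Of the other alternative values of the 37 fold changes chosen for this comparison of settings, 647 kept their direction and side of the threshold and 28 newly passed it; members with fold changes near 0, such as F11, turned more often. With the replicate block 0 genes were called, as without it. Of the 34, 3, 1 and 0 had an unadjusted p under 0.05 (edgeR) in place of 7, 9 and 2. The share of all genes fell too, to 6.64%, 2.51% and 2.68% in place of 20.8%, 24.2% and 7.04%. The numbers of HFD + PBS replicate 3 and HFD + IgG1 replicate 7 occur in no other library. The block thus fits these libraries exactly, and neither informed the blocked fold changes or their spread. Same-numbered libraries had correlations of 0.007, -0.238, -0.011, -0.495 and -0.028 in their deviations from group means. Differently numbered libraries had -0.349 to 0.424. These values show no pairing of the mice by number, but with 3 libraries per group they cannot exclude one. Depth limits what can be said of members at a few CPM or less, such as F3, Plat and Plau throughout and F13a1 and Plaur in some libraries.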
